A study of Mus musculus with 9 samples.

Results

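The 10 genes described here encode the proteases and the thiol reductase that break down antigen in lysosomes. They were chosen by name: the cysteine cathepsins Ctss, Ctsb, Ctsh, Ctsl, Ctsz and Ctsc, the aspartic cathepsins Ctsd and Ctse, the asparagine endopeptidase Lgmn (legumain), and Ifi30 (also called GILT). They are 10 of 53458 annotated genes, and all 10 passed the filter on low counts that left 24133 genes for testing. The fewest reads behind any member in any library were the 156 estimated counts of Ctse in PanIN 1. The 9 RNA-seq libraries were made from cDC1, the conventional type 1 dendritic cells, of mouse peri-pancreatic lymph nodes. There were 3 libraries at each neoplasia stage, Healthy, PanIN (pancreatic intraepithelial neoplasia, a precursor of the cancer) and Tumor. KPC, named in the series title, is a mouse model of pancreatic cancer. The labels give the stage alone, and the sources used here do not give the alleles of the Healthy mice, the Cre driver, the age of the mice or the sorting gate. The labels also do not say whether a library is 1 animal or a pool, so each p-value reflects the spread among these libraries alone, and that spread may be technical.

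Cathepsins are made as inactive precursors, sorted to endosomes and switched on by acid and by other proteases. In antigen-presenting cells they cut captured protein into peptides and degrade the invariant chain that guards the groove of MHC class II, while too much proteolysis destroys the peptides that cDC1 cross-present to cytotoxic T cells. Dendritic cells are known to hold lysosomal proteolysis low when immature, and maturation is known to acidify their lysosomes.

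The libraries held 32150281 to 68934430 estimated counts. Levels are given as CPM, counts scaled to the size of the library with the TMM factors of edgeR, unless TPM, which also divides by transcript length, is named. The 10 cDC1 marker genes summed to 4179 to 15178 CPM, and Healthy 2 was the highest. Healthy 2 also had the lowest levels of the maturation genes Ccr7, the receptor that guides mature dendritic cells to lymph nodes (57.2 CPM), and Fscn1, their actin-bundling protein (145 CPM), which in the other 8 libraries stood at 419 to 2602 and 1335 to 6798 CPM. Tumor 1, PanIN 1 and Healthy 1 share a code in their titles, and values within or outside it are given beside some of the results. Each other library has a code of its own.

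Per unit of transcript length, 5 genes made up most of the protease message in each library. Ifi30, the reductase that opens disulfide bonds of antigen in acid compartments, took a median of 37.6% of the summed TPM of the 10 genes over the 9 libraries. Ctss, the invariant chain protease of dendritic cells, took 17.4%, and Ctsh, an aminopeptidase and endopeptidase, 17%. Ctsz, a carboxypeptidase also called cathepsin X, took 12.1%, and Ctsb, a broad endopeptidase and carboxypeptidase, 9.26%. Lgmn took 2.9% and the other 4 genes less, with Ctse lowest at 0.104%. The TPM of a gene sums all its annotated transcripts, coding or not. The order by TPM was not fully resolved: the ranges of Ctss (15.4% to 25.7%) and Ctsh (15.6% to 18.7%) overlapped, and so did those of Ctsz (9.45% to 13.9%) and Ctsb (7.59% to 11.5%).

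**Figure D1:**
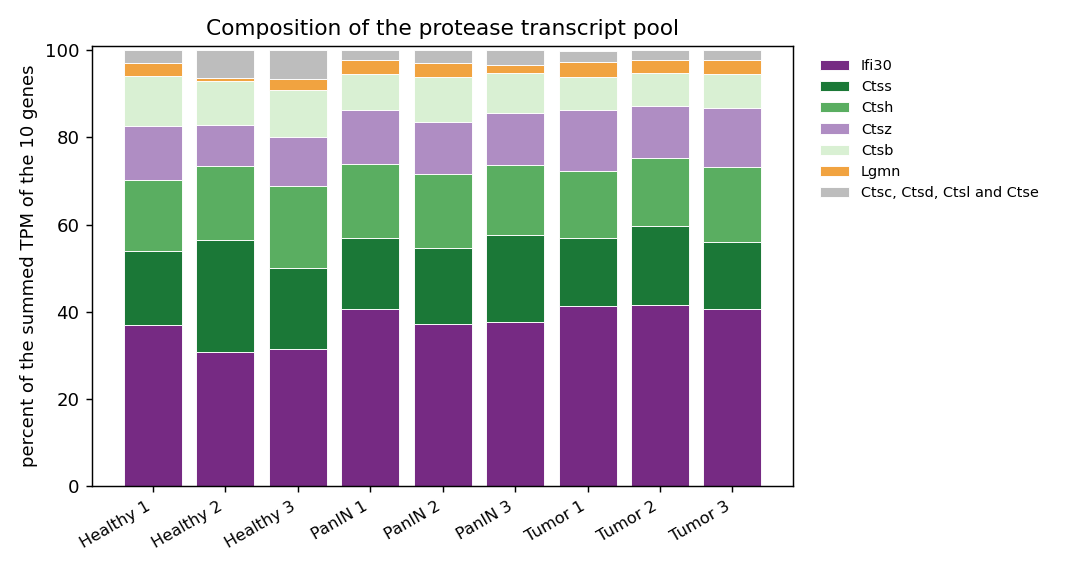
Stacked bars give the percent of the summed TPM of the 10 genes taken by each gene in each of the 9 libraries (vertical axis, percent). Ifi30 takes 40.5% to 41.5% in the Tumor libraries and 30.7% to 36.9% in the Healthy libraries, and the band of Lgmn is thinnest in Healthy 2, at 0.785%.

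Ifi30 and Ctsb took different parts of that pool at the 3 stages. The share of Ifi30 was 36.9%, 30.7% and 31.5% in Healthy 1 to 3, 40.5%, 37.2% and 37.6% in PanIN 1 to 3, and 41.4%, 41.5% and 40.5% in Tumor 1 to 3. Each PanIN and Tumor library was above each Healthy library in this share. The share of Ctsb ran the other way, at 11.5%, 10% and 10.7% in the Healthy libraries, 8.34%, 10.4% and 9.26% in the PanIN libraries, and 7.59%, 7.59% and 7.82% in the Tumor libraries. Each Tumor library was below each PanIN and Healthy library in the share of Ctsb. Of the TPM of Ctsb, 51.43% to 67.74% was the short transcript Ctsb-202, annotated as retaining an intron and described below. In CPM, Ctsb was higher in each Tumor library than in each PanIN and Healthy library. The shares of Ifi30 and Ctsb in the pool are descriptions and were not tested.

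Ifi30 (chr8:70762774-70766663, minus strand, GRCm38) had the highest level of the 10 genes in each of the 9 libraries, both in CPM and in TPM. Ifi30 stood at 879, 771 and 589 CPM in Healthy 1 to 3, 1104, 878 and 759 CPM in PanIN 1 to 3, and 1616, 1298 and 1298 CPM in Tumor 1 to 3. All Tumor libraries were above all others, while PanIN and Healthy overlapped. The mean was 1404 ± 183 CPM in Tumor, against 747 ± 147 CPM in Healthy (SD, n = 3 each), a log2 fold change of 0.91 (SE 0.27) with an adjusted p of 0.168 by the quasi-likelihood test of edgeR, adjusted over all genes by Benjamini-Hochberg.

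Ctsz (chr2:174427493-174439039, minus strand) followed Ifi30 closely. Ctsz stood at 528, 431 and 356 CPM in Healthy 1 to 3, 605, 502 and 419 CPM in PanIN 1 to 3, and 987, 704 and 779 CPM in Tumor 1 to 3. Tumor again did not overlap either other stage. Its mean was 823 ± 147 CPM in Tumor and 439 ± 86.2 CPM in Healthy (SD, n = 3 each), with a log2 fold change of 0.91 (SE 0.27) and an adjusted p of 0.168 by edgeR's quasi-likelihood test. The ratio of Ctsz to Ifi30 in TPM stayed between 0.293 and 0.358 in the 9 libraries. Of all pairs of members this was the nearest, with a mean absolute difference of 0.06 in log2 CPM after each gene was centred on its own mean. Both keep their direction within the shared title code, where Tumor 1 minus Healthy 1 was 0.88 for Ifi30 and 0.90 for Ctsz in log2 CPM. Among the other 6 libraries the differences of the means were 0.95 and 0.92. Each of these 6 has a title code of its own, so stage and code cannot be told apart among them.

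The bases just before the annotated starts of these genes are shown because Ifi30 and Ctsz had the nearest profiles of any pair of members, while Ctss, of the same pool, stood apart from both in Healthy 2. The letters searched, on both strands, were CACGTG, an E-box that lysosomal regulators such as TFEB are known to bind, and a pair of GAAA with any 2 bases between them, the repeat of interferon-response elements. The motifs do not overlap each other. Of 32851 mouse promoters in RefSeq (build GRCm38.p6), 6.02% hold CACGTG in the 250 bases before the start and 2.98% the GAAA pair. RefSeq gave promoters for 7 of the 10 genes. The windows are chr8:70766664-70766913 (minus strand) for Ifi30, chr2:174439040-174439289 (minus strand) for Ctsz and chr3:95526536-95526785 (plus strand) for Ctss, written 5′ to 3′ and ending at the base before the start, with the motifs in capitals.
Ifi30: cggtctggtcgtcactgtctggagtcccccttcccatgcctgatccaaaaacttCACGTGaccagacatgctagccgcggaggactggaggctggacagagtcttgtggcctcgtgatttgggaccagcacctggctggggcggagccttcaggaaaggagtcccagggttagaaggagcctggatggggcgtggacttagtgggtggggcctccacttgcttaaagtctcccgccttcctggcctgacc
Ctsz: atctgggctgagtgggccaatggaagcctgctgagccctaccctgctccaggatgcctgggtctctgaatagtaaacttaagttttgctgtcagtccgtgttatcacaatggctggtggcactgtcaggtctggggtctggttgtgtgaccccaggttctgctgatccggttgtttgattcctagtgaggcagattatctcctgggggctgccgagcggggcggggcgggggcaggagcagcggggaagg
Ctss: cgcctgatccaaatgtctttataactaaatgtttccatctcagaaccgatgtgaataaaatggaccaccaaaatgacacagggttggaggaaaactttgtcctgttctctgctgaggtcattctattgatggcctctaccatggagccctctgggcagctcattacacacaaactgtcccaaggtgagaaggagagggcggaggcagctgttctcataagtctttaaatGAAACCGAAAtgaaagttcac
The Ifi30 window held 1 CACGTG that began 196 bases before the start, the Ctss window held 1 GAAA pair that began 21 bases before it, and the Ctsz window held neither motif. Of the 7 genes with a promoter in RefSeq, 4 (Ifi30, Ctsd, Ctsl and Lgmn) held CACGTG in the 250 bases before a RefSeq start, and 1 (Ctss) held the GAAA pair. The 7 genes had 8 promoters, and the Lgmn promoter just before its annotated gene start held no CACGTG. A match of letters is a description and does not show that a factor binds there.

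Ctsh and Ctsb formed the next nearest pair, with a mean absolute difference of 0.10. Ctsh (chr9:90054152-90076089, plus strand) stood at 345, 380 and 314 CPM in Healthy 1 to 3, 407, 332 and 274 CPM in PanIN, and 578, 462 and 471 CPM in Tumor. Ctsb (chr14:63122462-63145923, plus strand) stood at 678, 605 and 476 CPM in Healthy, 652, 604 and 469 CPM in PanIN, and 1007, 760 and 727 CPM in Tumor. For both genes every Tumor library was above every PanIN and Healthy library, and PanIN and Healthy overlapped. The log2 fold change of Tumor against Healthy was 0.54 (SE 0.24) for Ctsh and 0.50 (SE 0.26) for Ctsb, with adjusted p of 0.266 and 0.347 by edgeR.

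Lgmn (chr12:102394084-102439813, minus strand), which cuts after asparagine and also processes other cathepsins, had the largest positive log2 fold change of the members in Tumor against Healthy. It stood at 138, 37.4 and 96.1 CPM in Healthy 1 to 3, 164, 145 and 74.4 CPM in PanIN, and 262, 182 and 198 CPM in Tumor. Tumor did not overlap the other stages, but the spread inside Healthy and inside PanIN was wide. The log2 fold change of Tumor against Healthy was 1.24 (SE 0.42), with an adjusted p of 0.173 by edgeR. It was 0.92 between Tumor 1 and Healthy 1, which share the title code, and 0.63 without Healthy 2 and Healthy 3.

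Ctss (chr3:95526786-95556403, plus strand) did not separate Tumor from Healthy. It stood at 498, 758 and 421 CPM in Healthy, 548, 491 and 499 CPM in PanIN, and 750, 692 and 615 CPM in Tumor. Healthy 2, the library with the lowest Ccr7, was the highest of all 9, and Tumor was above PanIN without overlap. The log2 fold change was 0.30 (SE 0.27) for Tumor against Healthy and 0.42 for Tumor against PanIN, with adjusted p of 0.622 and 1 by edgeR.

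Ctsc (chr7:88278085-88310888, plus strand), the dipeptidyl peptidase that activates granule proteases of other leukocytes, varied least among the members. It stood at 61.2, 95.2 and 69.8 CPM in Healthy, 69.2, 89.8 and 91.5 CPM in PanIN, and 105, 93.6 and 83.3 CPM in Tumor, and the stages overlapped. Ctsl (chr13:64359337-64370890, minus strand), the main invariant chain protease of thymic epithelium, was low throughout, at 8.15 to 18.4 CPM. The log2 fold change of Tumor against Healthy was 0.32 (SE 0.23) for Ctsc and 0.10 (SE 0.31) for Ctsl, whose sign turned under several settings of the analysis.

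The aspartic cathepsins differed from each other. Ctsd (chr7:142375911-142388038, minus strand), found in the lysosomes of most cells, stood at 59.4, 30.9 and 63.3 CPM in Healthy, 53.6, 37.9 and 35.1 CPM in PanIN, and 95, 41.8 and 46.5 CPM in Tumor. Tumor 1 was apart from the other Tumor libraries and the stages overlapped. The predicted gene Gm49369 overlaps Ctsd on the same strand, and 38.7% of the 31-base words of the main Ctsd transcript also occur in it, so reads of the pair cannot be fully told apart. Gm49369 was listed at 0 in Tumor 1 and PanIN 3, the libraries in which the transcript Ctsd-202 took its highest shares of Ctsd TPM, 46.29% and 47.43%. With the counts of Gm49369 added, the log2 fold change of Ctsd in Tumor against Healthy was 0.06, against 0.25 without them.

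Ctse (chr1:131638306-131675505, plus strand), an endosomal aspartic protease of antigen-presenting and gastric epithelial cells, was high in 2 libraries alone. It stood at 6.13, 209 and 77.9 CPM in Healthy 1 to 3, 4.21, 7.46 and 3.67 CPM in PanIN, and 27.4, 6.46 and 4.62 CPM in Tumor. Healthy 1 lay inside the range of the PanIN and Tumor libraries, so no stage separated from another. The fitted log2 fold change was -2.93 (SE 0.95) for Tumor against Healthy and -4.25 (SE 1.01) for PanIN against Healthy, with adjusted p of 0.168 and 0.312 by edgeR. Without Healthy 2 and Healthy 3 these became 1.06 and -0.26, and within the shared title code 2.15 and -0.54. The ratio of Ctse to Ctsd in TPM was 6.66 in Healthy 2 and 1.03 in Healthy 3, and at most 0.295 in the other 7 libraries. Some marker genes of other cells stood high in the same libraries. Cd207, the langerin of Langerhans cells and some dermal and lymphoid cDC1, stood at 36.4 CPM in Healthy 2 and at most 8.24 CPM elsewhere, while Epcam, the other Langerhans cell marker listed, was lowest in Healthy 2, at 2.07 CPM. The 6 cDC2 markers summed to 158 CPM in Healthy 3 and at most 114 CPM elsewhere. Most of the sum in Healthy 3 was Sirpa, at 114 CPM, which was highest there, as were Cd209a, Clec10a and Mgl2. Irf4 and Itgam were not, at 15.7 and 11.8 CPM in Healthy 3, against 50.6 and 12 CPM in Tumor 1. In Tumor 1, the third highest in Ctse, the 10 epithelial and acinar markers summed to 78.3 CPM, against 2.78 to 14.8 CPM in the other 8 libraries. Most of this was Krt8, Krt18, Krt19 and Cdh1, at 23.1, 22.4, 22 and 9.83 CPM. The acinar genes of the list were at most 0.574 CPM in Tumor 1 (Prss2). Prss2 and Ctrb1 stood higher in PanIN 1, at 3.02 and 6.21 CPM. The part of these cells in the Ctse values was not tested, and in bulk RNA fewer cells of a type and less RNA per cell cannot be told apart.

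**Figure D2:**
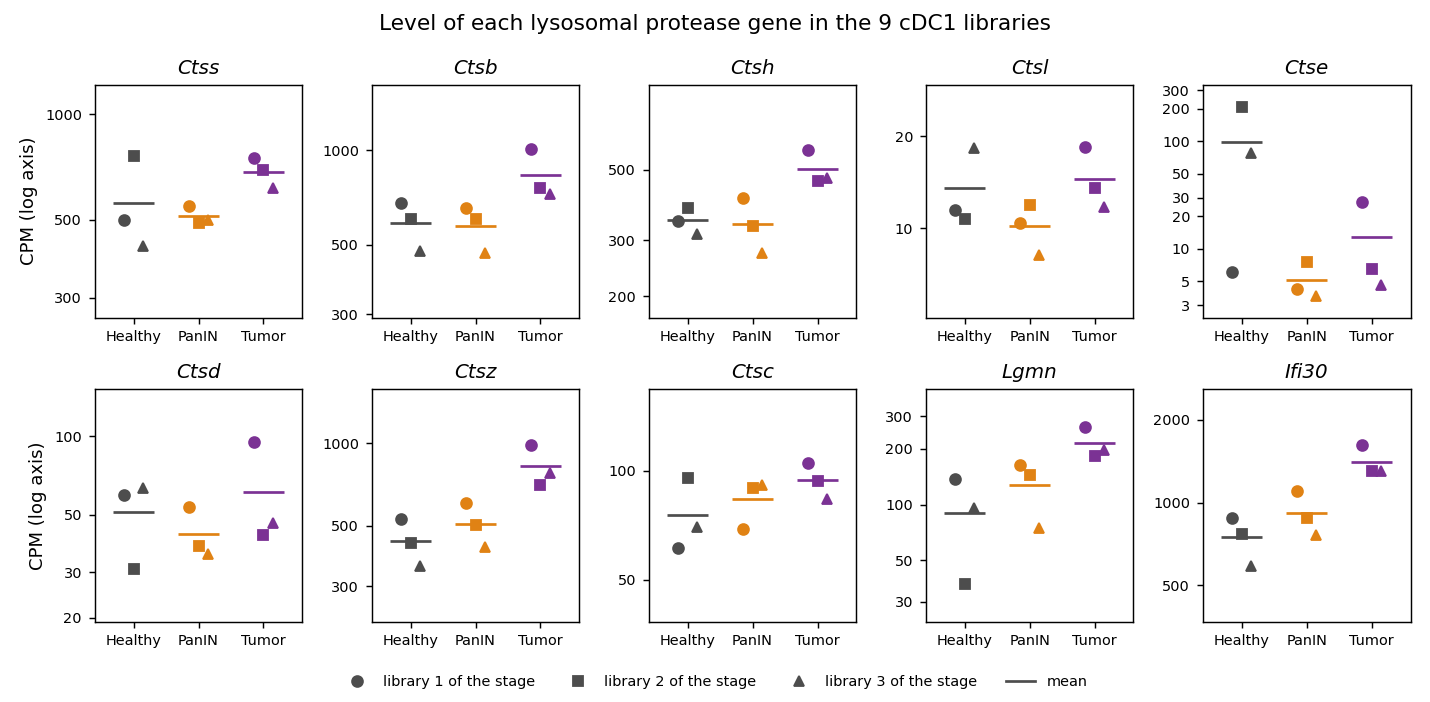
Each panel plots 1 gene in CPM (log axis) for the 3 libraries of each stage, with a line at the mean. Ifi30, Ctsz, Ctsh, Ctsb and Lgmn lie higher in all Tumor libraries than in all others, and Ctse is high only in Healthy 2 and Healthy 3, at 209 and 77.9 CPM.

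Tumor against Healthy asks how the protease genes differ where the node drains an established tumor. No member passed an adjusted p of 0.05 in edgeR, where 0.0249% of all genes tested did. An unadjusted p under 0.05 was found for 5 members, beside 17.8% of all genes. Ctsz, Ifi30, Lgmn and Ctsh were higher in Tumor, beside 6.82% of all genes, and Ctse was lower, beside 11%. Groups did not overlap for 5 members, all higher in Tumor (Ifi30, Ctsz, Ctsb, Ctsh and Lgmn), beside 9.02% of all genes. The median log2 fold change of the members was 0.41, against -0.11 over all genes, and 9 of 10 were above 0, beside 43.5% of all genes. The median difference of the members in log2 CPM was 0.76 within the shared title code and 0.32 outside it. Within and outside the code, Ctsc was at 0.77 and 0.12, Ctsd 0.68 and -0.00, Ctsl 0.67 and -0.15, and Ctse 2.15 and -4.53. Lgmn, Ctsz and Ifi30 were larger outside it, Lgmn most, at 0.92 and 1.66. Other tools called some members: DESeq2 called Ctsz, Lgmn and Ifi30, beside 9.42% of the genes it tested, and limma-voom with sample weights called Ctsh, Ctsz, Ctsc and Ifi30, beside 8.23%. In edgeR without Healthy 2, Ifi30 alone was called. In TPM, groups did not overlap for Ctsh, Ctsz, Lgmn and Ifi30, beside 7.94% of all genes, and Ctsb overlapped.

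The summed markers of other cell types overlapped between Tumor and Healthy, apart from the plasmacytoid dendritic cell list. That list was lower at 80.5 to 106 CPM in Tumor, against 109 to 141 CPM in Healthy. Of its 5 tested genes, 3 were below 0 in log2 fold change and 2 above. Tcf4 averaged 52.4 CPM in Tumor and 79.2 CPM in Healthy, and Ly6d 4.36 and 1.08 CPM. Macrophages are rich in lysosomal proteases. Their 12 markers summed to 61.5, 26.4 and 29.4 CPM in Tumor 1 to 3 and 51.3, 47.1 and 69 CPM in Healthy 1 to 3. Of the 11 tested, 9 were below 0 in log2 fold change, where 43.5% of all genes were above 0. Vsig4 was under 3 counts in each library. Plasma cell markers were highest in Tumor 1 and Tumor 2, at 225 and 104 CPM, and at most 83.1 CPM in the other 7 libraries. Tumor 3 had 18 CPM of plasma cell markers. T and NK cell markers summed to 25.4 to 219 CPM in Tumor and 27 to 143 CPM in Healthy. Log2 fold changes were above 0 for 6 of 6 plasma cell, 6 of 6 neutrophil and 6 of 8 B cell genes tested. The same held for 7 of 8 T and NK cell, 6 of 8 epithelial and acinar, 2 of 6 cDC2 and 1 of 2 Langerhans cell genes. The neutrophil list summed to at most 9.12 CPM in Tumor. The part of any of these cell types, macrophages among them, in the member values was not tested.

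Tumor against PanIN sets established tumor beside its precursor. No member passed an adjusted p of 0.05, beside 0.0124% of all genes, and the adjusted p was 1 for each member. All 10 log2 fold changes were above 0, beside 45.8% of all genes, with a median of 0.56 against -0.05 over all genes. Ctsz (0.69), Ctsh (0.58) and Ifi30 (0.62) had an unadjusted p under 0.05 by edgeR, beside 2.02% of all genes higher at that level. Groups did not overlap for 6 members, the 5 of the comparison with Healthy and Ctss, beside 8.33% of all genes. The 5 that lay above both other stages in all Tumor libraries compare with 3.05% of all genes. These values share the Tumor libraries with the comparison above. In TPM the separation of 5 of the 6 was lost: Ctss alone did not overlap, at 371, 360 and 380 TPM in Tumor, against 344, 349 and 349 TPM in PanIN, beside 2.36% of all genes. On the log2(TPM + 1) scale the median of all genes was itself -0.16, in place of -0.05. DESeq2 and limma-voom each called 0 members here, beside 0.125% and 0.0124% of all genes.

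PanIN against Healthy asks about the precursor stage. No member passed an adjusted p of 0.05, as did 0% of all genes, and the groups did not overlap for 0 members in CPM, beside 7.4% of all genes that did so higher and 4.81% lower. Ctse alone had an unadjusted p under 0.05, beside 10.5% of all genes in either direction and 5.65% lower, and this rests on Healthy 2 and Healthy 3. The median log2 fold change of the members was -0.03, against -0.10 over all genes, and 4 of 10 were above 0, beside 42.5%. In TPM, Ifi30 stood at 848, 748 and 654 TPM in PanIN, against 621, 476 and 382 TPM in Healthy, and Ctsh at 355, 345 and 280 TPM in PanIN, against 272, 266 and 226 TPM in Healthy. Neither overlapped on that scale, beside 14.4% of all genes, and the median of all genes was 0.11 in log2(TPM + 1), in place of -0.10. DESeq2 called Ctse, beside 0.866% of the genes it tested, and limma-voom with sample weights Ctsc, beside 14.1%. PanIN 2 carried other leukocytes, with B cell markers summing to 237 CPM against at most 67 CPM elsewhere, and PanIN 2 and PanIN 3 had neutrophil markers at 39.6 and 31 CPM against at most 9.12 CPM. Their part in the PanIN values was not tested.

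In the test of any difference among the 3 stages, no member was called by edgeR, beside 0.0207% of all genes, and the smallest adjusted p was 0.291, for Ctse. An unadjusted p under 0.05 was found for 4 members, beside 13.4% of all genes. DESeq2 called Ctse, Ctsz and Ifi30 in the same test, beside 6.46% of the genes it tested, and limma-voom with sample weights called 4 members, beside 13.5%.

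**Figure D3:**
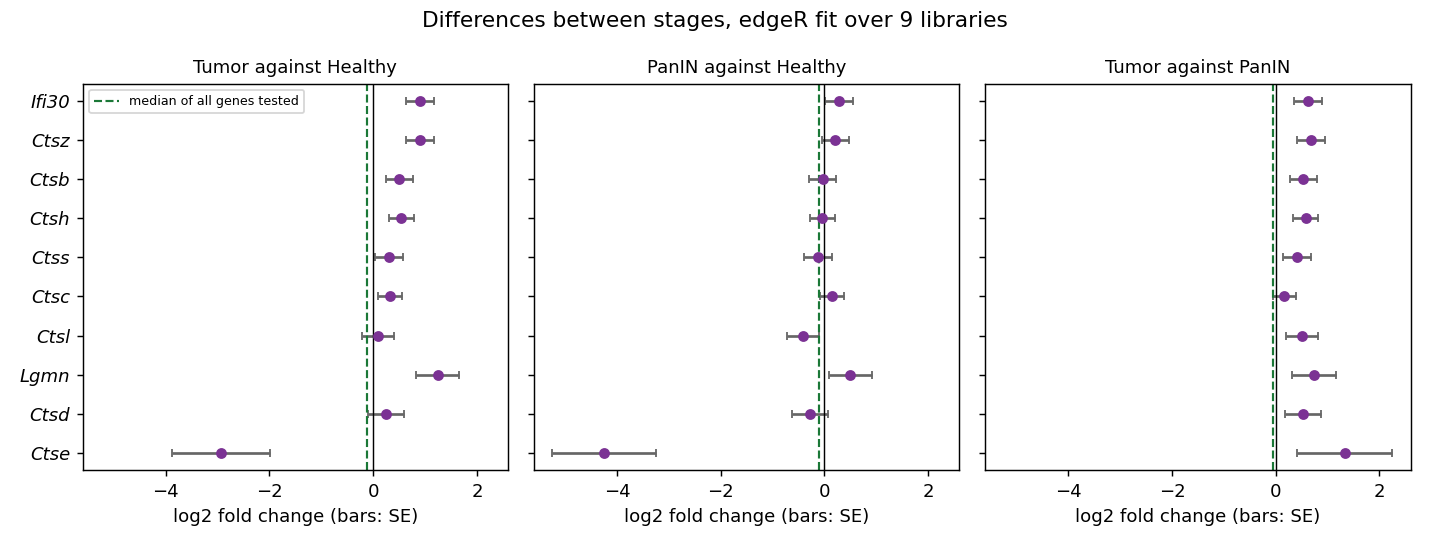
Points give each member's log2 fold change with its SE in 3 comparisons from the edgeR fit over 9 libraries, and the dashed line is the median of all genes tested. The median of the members is 0.41 for Tumor against Healthy, -0.03 for PanIN against Healthy and 0.56 for Tumor against PanIN, and Ctse lies far to the left in both comparisons with Healthy.

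The deposited values are per transcript, and Ctsb differed between stages in which transcript was counted. This feature was chosen after its values were seen. Of the TPM of Ctsb, the coding transcript Ctsb-201 took 32.91%, 32.26% and 32.42% in Healthy 1 to 3, 39.9%, 33.27% and 33.29% in PanIN 1 to 3, and 48.55%, 45.7% and 40.37% in Tumor 1 to 3. The shares ordered by stage with no overlap between any 2 stages. Nearly all of the rest was Ctsb-202, annotated as retaining an intron, which took 51.43% to 59.56% in Tumor and 67.03% to 67.74% in Healthy. Over all genes, 1.76% of 33071 transcripts with a median share between 5% and 95% ordered by stage in this way in either direction, and among the 21 such transcripts of the members only this pair did. In TPM, Ctsb-201 itself stood at 63.9, 50.1 and 41.9 in the Healthy libraries, 69.5, 69.4 and 53.6 in the PanIN libraries, and 88.5, 68.9 and 77.3 in the Tumor libraries. Summed over transcripts, Ctsb in TPM was 182, 151 and 191 in Tumor, against 194, 155 and 129 in Healthy. Ctsb-202 is short (801 bases) and weighs more in TPM than in counts, so the level of Ctsb depends on the unit. With counts rebuilt from TPM, the log2 fold change of Ctsb in Tumor against Healthy was 0.14, in place of 0.50.

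**Figure D4:**
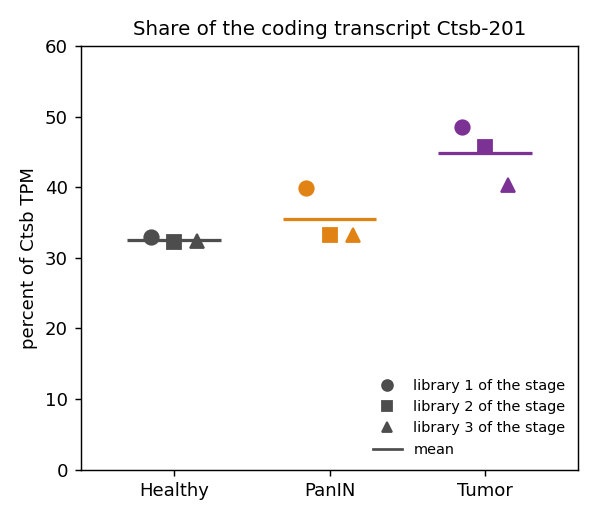
Points give the percent of Ctsb TPM assigned to the coding transcript Ctsb-201 in each library, with a line at the mean of each stage. The Healthy libraries lie together at 32.26% to 32.91%, and the Tumor libraries lie highest, at 40.37% to 48.55%.

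Some transcript shares of other members also did not overlap between stages, as did those of many transcripts over all genes. For Ctsh, the coding transcripts Ctsh-204 and Ctsh-208 took at most 22.95% and 11.21% of TPM in PanIN and Tumor, against 25.11% to 30.28% and 12.08% to 17.09% in Healthy. The retained-intron transcript Ctsh-207 took at least 12.52% in PanIN and Tumor, against 4.18% to 11.49% in Healthy. The largest part of Ctsh TPM in each library was Ctsh-202, annotated as a target of nonsense-mediated decay. It took 39.7% to 56.5%, and the stages overlapped. In all, 7 of 21 member transcripts did not overlap between Tumor and Healthy, beside 23.5% of all transcripts. Between PanIN and Healthy 6 of 21 did not overlap, beside 14.6%, and between Tumor and PanIN 2 of 21, beside 19.9%. Shares within a gene depend on each other, and several of these transcripts are of Ctsh and Ctsb, so they are not independent counts. Ctsz has 1 annotated transcript, and Ctss-202 took 87.79% to 96.36% of Ctss. The split of reads between overlapping transcripts is a model estimate whose error is unknown here.

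The maturation genes were also higher on average in Tumor. The 10 maturation genes all had log2 fold changes above 0 in each of the 3 comparisons, with a median of 1.51 for Tumor against Healthy, 0.65 for PanIN against Healthy and 0.77 for Tumor against PanIN, and 0 were called by edgeR. Over all genes tested, 43.5%, 42.5% and 45.8% were above 0 in these comparisons, in the same order. The mean log2 CPM of Ccr7 and Fscn1 was 11.04, 6.51 and 9.68 in Healthy 1 to 3, 11.26, 10.76 and 9.88 in PanIN 1 to 3, and 12.04, 10.95 and 11.38 in Tumor 1 to 3. Lgmn was the member tied most closely to this measure. The slope on this measure was tested in an edgeR fit with stage and the measure as terms, a test chosen after seeing the data. Lgmn rose by 0.45 in log2 (SE 0.07, adjusted p = 0.00404) per unit, beside 3.45% of all genes called. Without Healthy 2 the slope was 0.59 (SE 0.13, adjusted p = 0.171), and 0 of 25589 genes were called. Ctsd had the next largest positive slope, 0.30 (adjusted p = 0.0818), and Ctse the most negative, -0.60 (adjusted p = 0.225). The slopes of Ifi30, Ctsz, Ctsb and Ctsh were 0.06, 0.08, 0.06 and 0.01 with all 9 libraries, and 0.38, 0.41, 0.37 and 0.27 without Healthy 2, none with an adjusted p under 0.05 in edgeR.

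With the Ccr7 and Fscn1 term in the fit, the log2 fold change of Tumor against Healthy was 0.77 for Ifi30 and 0.70 for Ctsz, in place of 0.91 for both, and 0.33 for Lgmn, in place of 1.24. Ctsd turned to -0.44 and Ctsl to -0.17, and Ctse stood at -0.66. Ctss rose to 0.62, in place of 0.30, and Ctsc to 0.66, in place of 0.32. Ctsh was 0.52, in place of 0.54, and Ctsb 0.37, in place of 0.50. The median of the members was 0.44 with the term and 0.41 without it. These fold changes use the slopes of all 9 libraries, which depend on Healthy 2. Without Healthy 2 the slopes were 0.38 for Ifi30, 0.41 for Ctsz and 0.59 for Lgmn. The fold changes with the term were not computed without Healthy 2. Ctss is set apart from Lgmn most clearly in Healthy 2, where the ratio of Lgmn to Ctss in TPM was 0.0306, against 0.0921 to 0.217 in the other 8 libraries.

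**Figure D5:**
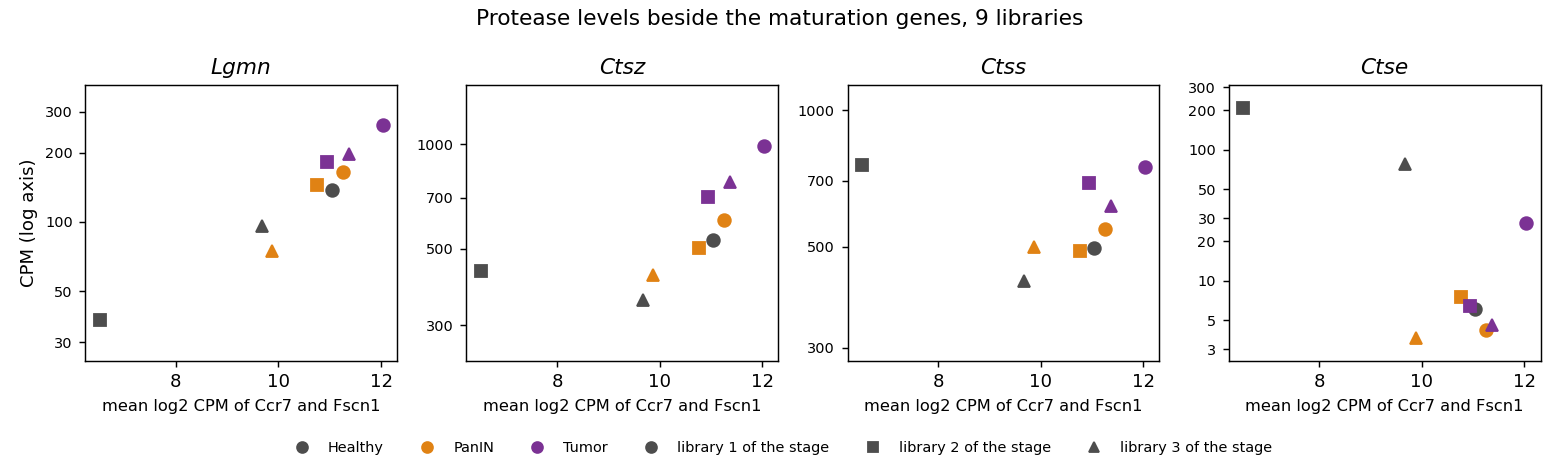
Each panel plots the CPM of 1 gene (log axis) against the mean log2 CPM of Ccr7 and Fscn1 in the 9 libraries, with colour for the stage. Lgmn is lowest in Healthy 2 at 37.4 CPM and highest in Tumor 1 at 262 CPM, while Ctss in Healthy 2 is at 758 CPM, the highest of the 9.

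The spread over the 9 libraries differed among the members. The SD of log2 CPM was 2.08 for Ctse, 0.85 for Lgmn and 0.50 for Ctsd, and 0.26 to 0.47 for the other 7, against a median of 0.72 over all genes tested. For the 3 most variable members, the nearest profiles were sought among 9528 protein-coding genes by the mean absolute difference of centred log2 CPM. Those nearest to Lgmn were Basp1 (0.08), Shb (0.12) and Lamp1 (0.13), the last a protein of the lysosomal membrane. Those nearest to Ctsd were Ttll5 (0.15), Pnkd (0.18) and Elk3 (0.18). Ctse had no near gene, with Unc13c the nearest at 1.30.

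Other lysosomal genes are described by 6 lists. None of their genes was called by edgeR in any of the 3 comparisons. In Tumor against Healthy the 10 other lysosomal peptidases had a median log2 fold change of 0.03, with 5 above 0. Over all genes tested the median was -0.11, and 43.5% were above 0. Scpep1, a serine carboxypeptidase, averaged 499 ± 84.4 CPM in Tumor and 268 ± 126 CPM in Healthy (SD, n = 3 each), and Ctsf, a cysteine cathepsin, 2.09 ± 0.946 and 6.07 ± 2.76 CPM. The 13 other hydrolases had a median of -0.07, with 5 above 0. Neu1, a sialidase bound to Ctsa, averaged 32.3 ± 3.01 CPM in Tumor and 21.6 ± 2.06 CPM in Healthy (SD, n = 3 each).

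Genes that restrain, acidify or supply the protease compartment were mixed. The 6 cathepsin inhibitors had a median log2 fold change of -0.07 in Tumor against Healthy, but Cstb (stefin B, a cytosolic inhibitor of cysteine cathepsins) averaged 98.1 ± 26.9 CPM in Tumor and 48 ± 13.3 CPM in Healthy (SD, n = 3 each), a log2 fold change of 1.03 with an adjusted p of 0.168 by edgeR. Of the 16 genes of the vacuolar proton pump that were tested, of 17, 12 were above 0 in Tumor against Healthy (median 0.25) and 15 in Tumor against PanIN (median 0.27). Over all genes, 43.5% and 45.8% were above 0 in these comparisons, with medians of -0.11 and -0.05. The pump subunit Atp6v0e averaged 286 ± 35.1 CPM in Tumor and 176 ± 39.7 CPM in Healthy. Of the 12 genes of the lysosomal membrane and of sorting, 7 were above 0 in Tumor against Healthy (median 0.08). Igf2r, the receptor that carries mannose 6-phosphate-tagged enzymes to lysosomes, averaged 69 ± 31.9 CPM in Healthy, 61.2 ± 27.8 CPM in PanIN and 33.3 ± 6.17 CPM in Tumor, with each Tumor library below each other library. Of the 4 regulators, Tfe3, a transcription factor of lysosomal genes, averaged 80.2 ± 11.7 CPM in Tumor and 54.9 ± 13.1 CPM in Healthy, and Mcoln1, the lysosomal calcium channel, 38.2 ± 6.88 CPM in PanIN and 23.1 ± 6.79 CPM in Healthy. None of these had an adjusted p under 0.05 by edgeR.

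In PanIN against Healthy the medians of the 6 lists ran from -0.31 for the inhibitors to 0.24 for the regulators, against -0.10 over all genes. In Tumor against PanIN they ran from -0.01 for the regulators to 0.27 for the proton pump. This compares with 0.56 for the members and -0.05 over all genes, and 0 genes of the 6 lists were called.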

How the data were processed

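For each of the 9 libraries the authors deposited estimated counts and TPM of transcripts. The submitters' processing notes name Salmon and mm10. File names mention another quantifier, so the tool is open, and the sources used here give no version or settings. The kit marks strand per the labels, but use of strand in quantification is not stated. Of 136288 transcripts, 136176 matched GENCODE M21 (GRCm38). Their estimated counts, at least 99.963% of each library, were summed to 53458 genes and rounded. edgeR 4.0.16 (R 4.3.3) fitted the 24133 genes passing filterByExpr (minimum count 10) over all 9 libraries, with stage as the only term, TMM factors (0.83 to 1.2), the quasi-likelihood test and Benjamini-Hochberg adjustment at 0.05. The common biological coefficient of variation was 56.5%. Depth ran from 32150281 to 68934430 counts.

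The members and lists were chosen with earlier results of these data known. Named genes are the 10 members, up to 2 genes with the smallest p per other list and comparison, and for the 3 most variable members the 3 protein-coding genes of nearest profile averaging at least 3 log2 CPM. An item that this rule takes is not reported here. Transcript shares were computed from the deposited TPM. Promoter sequences are from RefSeq (GRCm38.p6), upstream bases alone. Alternatives used DESeq2 1.42.0 and limma 3.58.1 (log2(TPM + 1) and log2(TPM + 0.1) among them), and the fits were checked on simulated data. Python 3.11.15, pandas 2.3.3 and matplotlib 3.10.9 made tables and figures.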

Additional observations from a re-analysis of the deposited data

How the results depend on the processing

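Of 690 fold changes recomputed with a test under alternatives, 638 kept their direction and side of the threshold, 39 changed sign and 13 passed the threshold. Of 30 differences within the shared title code, which have no test, 3 had another sign (Ctse 2.15 in Tumor against Healthy, Ctss 0.14 and Ctsh 0.24 in PanIN against Healthy). Of 91 recomputed counts of called members, 11 differed from the 0 that edgeR gave with the settings of the report. The cause of each change was not tested. In Tumor against Healthy, 2 members were called with no filter on low counts (Ctse and Lgmn), 3 by DESeq2 (Ctsz, Lgmn and Ifi30), 4 by limma-voom with sample weights, and leaving out 1 library gave 0 to 1 (Ifi30, without Healthy 2). In PanIN against Healthy, 1 was called with no filter (Ctse), 1 by DESeq2 (Ctse) and 1 by limma-voom (Ctsc). For any difference among stages, 1 was called with no filter (Ctse), 1 in the 6 libraries outside the shared title code (Ctse, chosen after seeing the data), 3 by DESeq2 and 4 by limma-voom.

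In Tumor against Healthy, Ctsl was -0.17 with the Ccr7 and Fscn1 term, -0.29 with counts rebuilt from TPM, -0.20 outside the shared title code, -0.16 on log2(TPM + 1) and -0.17 on log2(TPM + 0.1). Ctsd was -0.44 with that term, -0.09 outside the code and -0.03 by limma-voom. Ctse was 1.06 without Healthy 2 and Healthy 3 and 0.05 by limma-voom. In PanIN against Healthy, Ctss was 0.10 with the term, 0.04 without Healthy 2 and Healthy 3, and 0.23 on both TPM scales. Ctsb was 0.19 and 0.20 on the TPM scales, and Ctsh 0.35 and 0.36, with 0.05 on rebuilt counts. Ctsz was -0.06 without Healthy 2 and Healthy 3 and -0.05 by limma-voom. Lgmn was -0.08 with the term, -0.11 without Healthy 2 and Healthy 3, and -0.00 by limma-voom. In Tumor against PanIN on the TPM scales, Ctsb was -0.05 on both, Ctsl -0.02 and -0.03, and Ctsc -0.26 and -0.27. Leaving out 1 library at a time, Tumor against Healthy ran from -0.10 to 0.39 for Ctsl and from -0.21 to 0.47 for Ctsd. PanIN against Healthy ran from -0.26 to 0.16 for Ctss, from -0.14 to 0.10 for Ctsb and from -0.20 to 0.10 for Ctsh. Ifi30, Ctsz, Ctsh, Ctss and Lgmn were above 0 in Tumor against Healthy and Tumor against PanIN under each alternative. The labels carry no replicate numbers, so libraries were not paired. A fit with the title code of Tumor 1, PanIN 1 and Healthy 1 as a term changed no call.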
